A study of Homo sapiens with 9 samples.

Results

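The genes described here are the receptors, ligands, antagonist and SMADs through which a cell receives activin and TGF-beta, as measured in HCT116 cells that had been given activin. They were chosen by name, as the 10 genes of the deposited table called ACVR1B, ACVR2A, ACVR2B, TGFBR1, TGFBR2, INHBA, INHBB, FST, SMAD3 and SMAD4, and they were 10 of its 33861 genes. RNA was sequenced from 9 libraries of HCT116, a human colorectal carcinoma line, with 3 libraries in each of 3 groups named NC, Activin and Activin+HGF. Activin cells had received 100 ng/mL activin A for 5 days. Activin+HGF cells had received the same activin treatment and then 20 ng/mL hepatocyte growth factor (HGF) for 5 more days. The labels do not say what the NC cells were given or how long they were kept, so the time in culture and the factors cannot be told apart. By design, Activin+HGF cells also had 5 more days of treatment than Activin cells. Between these groups, HGF cannot be told apart from the added days or the time since activin was first given. Below, "after HGF" gives the order of treatment and not a cause. HCT116 is 1 tumor line and lacks mismatch repair, a background that every group shared. The labels do not say whether the 3 libraries of a group came from separate cultures, so the p-values measure the spread between libraries, which may be technical.

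An activin is a dimer of inhibin beta subunits, which INHBA and INHBB encode, and follistatin, the product of FST, is a secreted protein that binds activin and holds it away from its receptors. Activin binds a type II receptor (ACVR2A or ACVR2B), which then phosphorylates a type I receptor, mainly ACVR1B, while TGF-beta uses TGFBR2 and TGFBR1 in the same way. Both type I receptors phosphorylate SMAD2 and SMAD3, which join SMAD4 and act on genes in the nucleus.

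Runs of a single base bear on HCT116 as a model of this pathway, because replication slips on such runs in cells without mismatch repair. Frameshifts of receptor genes are well known in colorectal cancers of this kind, and HCT116 itself has known ones. In the reference coding sequences (GENCODE release 29, GRCh38), the longest single-base run was 5 or 6 bases in 8 of the 10 genes. The other two, TGFBR2 and ACVR2A, were the only ones of the 10 with a run of 8 or more bases. The run of TGFBR2-201 spans coding bases 374 to 383 in exon 3 of 7, and those of ACVR2A-201 span coding bases 278 to 285 in exon 3 and 1303 to 1310 in exon 10 of 11. These stretches are read 5′ to 3′ on the plus strand at chr3:30650355-30650414, chr2:147899458-147899504 and chr2:147926092-147926149, in that order, with the run in capitals.
TGFBR2 exon 3: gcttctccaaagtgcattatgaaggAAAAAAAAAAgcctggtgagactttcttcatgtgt
ACVR2A exon 3: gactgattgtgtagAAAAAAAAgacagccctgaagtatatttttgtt
ACVR2A exon 10: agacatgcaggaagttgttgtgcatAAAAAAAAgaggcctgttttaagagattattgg
These are reference sequences. The deposited counts are sums over a gene, so they do not show which alleles the RNA of TGFBR2 or ACVR2A came from. The RNA levels and ratios below are therefore not levels of working receptor.

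The counts on genes came to between 57453977 and 77016167 per library, and 3 counts corresponded to between 0.0373 and 0.0551 CPM, the count of a gene scaled to its library's size with the TMM factor and the scale used here for each gene across libraries. The libraries Activin 2 and Activin+HGF 1 stood furthest from the others of their groups. For each of the 9 tested genes, Activin 2 was either the highest or the lowest of the 3 Activin libraries. Of 8 colorectal epithelium markers, 6 reached an FPKM of 1 in some library, while CDH17 and LGALS4 did not, and their summed FPKM was 666 to 720 in NC, 556 to 759 in Activin and 645 to 875 in Activin+HGF. The summed FPKM of 4 leukocyte markers was 0.65 to 1.51, 4.13 to 8.56 and 5.83 to 7.54 in the same order, of which CD68 was the only one to reach 1. That of 5 fibroblast markers was 2.62 to 2.69, 4.58 to 6.04 and 2.88 to 3.65, with COL1A1 alone reaching 1, and that of 3 endothelial markers was at most 0.14. No marker was at 0 counts in every library, and PTPRC, CDH5 and DCN were listed at 0 FPKM on average in both NC and Activin+HGF. Some markers moved with treatment, and not all in the same direction. With activin, CD68, COL1A1 and CDH1 were higher (log2 fold changes 2.83, 1.03 and 0.91, adjusted p = 0.00131, 0.00205 and 0.0316 from edgeR). COL3A1, a fibroblast marker like COL1A1, was lower (-6.92, adjusted p = 0.00111 from edgeR), from a mean of 0.253 FPKM in NC to 0 in Activin. Their part in the results was not tested. All libraries were labeled as HCT116, so the marker names do not mean that leukocytes, fibroblasts or endothelial cells were present. Bulk libraries cannot tell fewer cells in a given state from less RNA per cell.

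Of the 10 genes, 9 had enough counts to be tested, and INHBA did not. With activin, INHBB and SMAD3 were higher and TGFBR2 was lower than in NC (edgeR's quasi-likelihood test, Benjamini-Hochberg adjusted p under 0.05 over 20988 genes), which made 3 of 9 genes (33.3%) against 18% of all genes tested, of which 9.58% were higher and 8.41% lower. After HGF, 0 of the 9 genes passed against Activin by edgeR, where 12.9% of all genes did (7.41% higher and 5.45% lower). There, 2 of the 9, INHBB and ACVR2B, had an unadjusted p under 0.05, and DESeq2 passed 1, INHBB. In Activin+HGF against NC, INHBB and SMAD3 again were higher, 2 of 9 genes (22.2%) against 31.4% of all genes (16.4% higher and 15% lower). The 3 comparisons share libraries with one another, so their values are given side by side and are not independent.

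**Figure D1:**
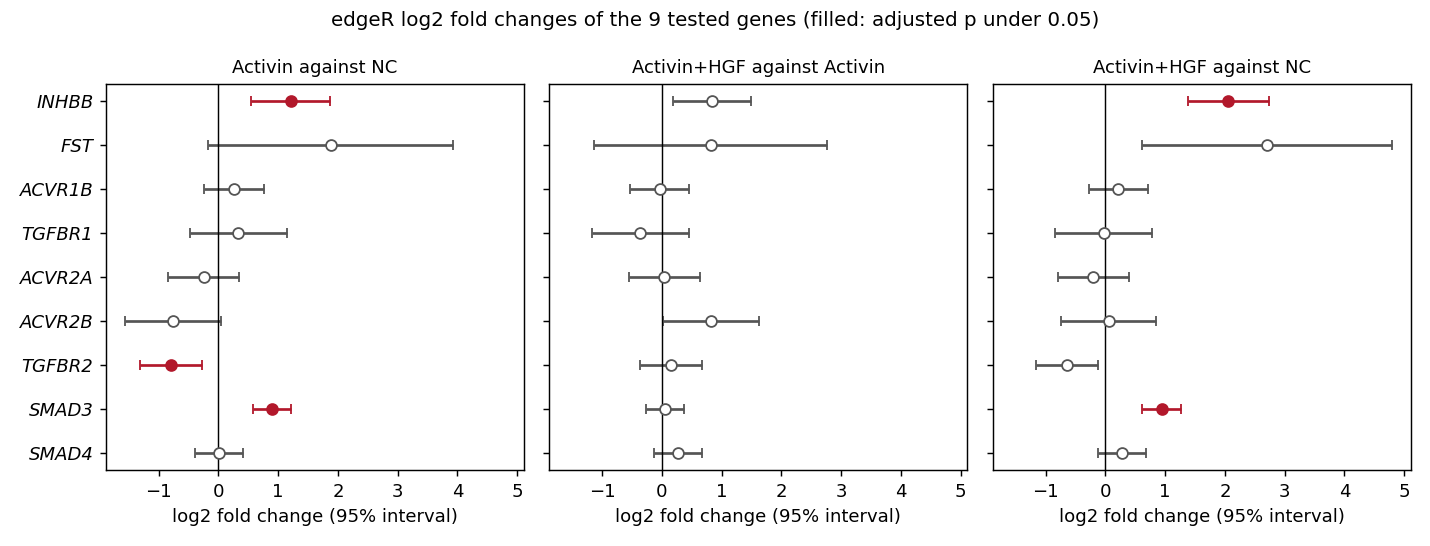
edgeR log2 fold changes of the 9 tested genes (x axis, points) with 95% intervals (bars) in the 3 comparisons; filled points passed at an adjusted p under 0.05. INHBB, SMAD3 and TGFBR2 are filled for Activin against NC, no gene is filled for Activin+HGF against Activin, and INHBB and SMAD3 are filled for Activin+HGF against NC.

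Without NC 1, NC 2 or NC 3, each left out in turn, 1 of the 9 genes passed with activin, and this was SMAD3. Without the library Activin 2, the number of the 9 genes that passed was 3, 1 and 3 in the order Activin against NC, Activin+HGF against Activin and Activin+HGF against NC. Without Activin+HGF 1 it was 3, 0 and 3. Groups did not overlap in CPM for 4, 2 and 5 of the 9 genes in the same order, against 42.2%, 32.7% and 53.8% of all genes, so the separation of groups was about as frequent among these genes as elsewhere. The median log2 fold change of the 9 genes was 0.26, 0.15 and 0.22, beside 0.02, -0.04 and -0.03 over all genes tested. The choice of scaling touches the HGF comparisons. With library totals in place of TMM factors, the median of all genes moved by -0.34 in Activin+HGF against Activin and by -0.27 in Activin+HGF against NC. The share of passing genes that were higher then went from 57.6% to 22.3% and from 52.3% to 36.3%, and in Activin against NC from 53.2% to 63.5%.

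Per length, as FPKM, the NC cells held most SMAD3 RNA (9.47 ± 0.545, SD, n = 3), followed by ACVR1B (6.96 ± 0.25), TGFBR2 (6.68 ± 0.3), TGFBR1 (4.99 ± 2.56) and SMAD4 (4.03 ± 0.172). The type II receptors of activin were lower, with an FPKM of 1.82 ± 0.127 for ACVR2B and 1.66 ± 0.136 for ACVR2A. INHBB (0.28 ± 0.0361) and FST (0.0367 ± 0.0321) were lower still, and INHBA was listed at 0. Neighbors from ACVR1B through SMAD4 overlapped in their libraries, as did ACVR2B with ACVR2A and FST with INHBA, so the order between neighbors is not settled. ACVR1B (6.72 to 7.22 FPKM) and TGFBR2 (6.38 to 6.98 FPKM) lay above SMAD4 (3.85 to 4.19 FPKM) in every NC library. The order with activin placed TGFBR2 (4.13 ± 1.46 FPKM) behind SMAD4 (4.33 ± 1.1 FPKM), though the libraries of the neighbors from ACVR1B to TGFBR2 overlapped. In Activin+HGF, ACVR1B (6.67 ± 1.54 FPKM) lay above TGFBR1 (4 ± 0.906 FPKM) and SMAD4 (3.96 ± 0.159 FPKM) above TGFBR2 (3.44 ± 0.406 FPKM), each without overlap. INHBB, below ACVR2A in every NC library, overlapped its neighbor in the order, ACVR2B with activin and ACVR2A after HGF, with 0.62 to 0.74 FPKM in Activin and 0.76 to 1.14 in Activin+HGF.

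**Figure D2:**
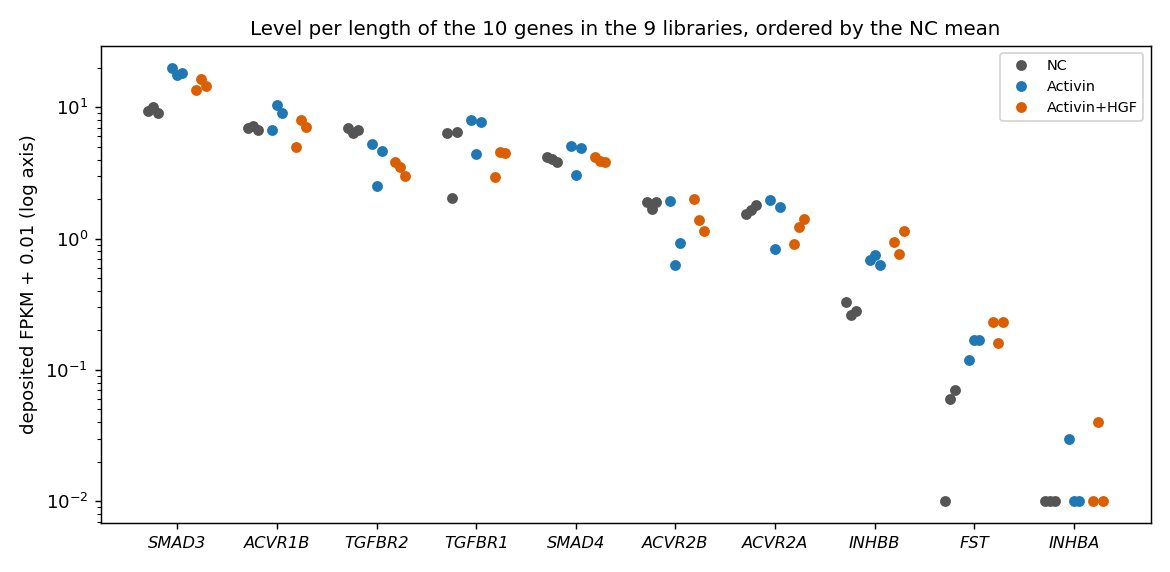
Deposited FPKM plus 0.01 (log axis) of the 10 genes in each of the 9 libraries, ordered along the x axis by their NC mean; points are libraries and colors are groups. SMAD3 was highest in every group, the type II activin receptors lay between 0.62 and 2 FPKM, and INHBB, FST and INHBA formed the low end.

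Among the ligand genes, INHBB (chr2:120346136-120351803), which encodes the subunit of activin B, rose with activin and was highest after HGF. Its CPM was 1.11, 0.922 and 0.981 in NC, 2.17, 2.78 and 2.02 in Activin and 4.59, 3.12 and 4.80 in Activin+HGF. No group overlapped another. The log2 fold change was 1.21 with activin (SE 0.30, adjusted p = 0.0194 from edgeR), and 2.05 in Activin+HGF against NC (SE 0.306, adjusted p = 0.000878 from edgeR). The further difference after HGF, 0.84 (95% interval 0.19 to 1.5), did not pass (adjusted p = 0.0849 from edgeR), and with library totals it was 0.50 (adjusted p = 0.241 from edgeR), which does not show that the treated groups had the same level. The passing result with activin was lost without NC 1, NC 2 or NC 3 (adjusted p = 0.0532, 0.0686 and 0.0814 from edgeR), with log2 fold changes of 1.33, 1.2 and 1.19.

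INHBA (chr7:41667168-41705335), which encodes the subunit of the activin A that was added as protein, was at 0 counts in 7 of the 9 libraries. The libraries Activin 1 and Activin+HGF 2 held 15 and 23 counts. A floor of 3 counts per library was used for a count of 0, and each treated group had 1 library above it, so no difference could be read. Among counts from 1 to 40 in the table, 35.0% could be divided by 4, more than an even spread would give, so a low count need not stand for 1 fragment and this floor may be too low. The added activin A is a protein and is not counted by RNA sequencing.

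FST (chr5:53480626-53487134) was near the detection limit in all groups. Its counts were 0, 11 and 15 in NC, 23, 34 and 35 in Activin and 51, 40 and 52 in Activin+HGF. As CPM these were 0, 0.164 and 0.186, then 0.312, 0.544 and 0.466, then 0.936, 0.581 and 0.811. The groups did not overlap on this scale, while in FPKM Activin (0.11 to 0.16) and Activin+HGF (0.15 to 0.22) did. The log2 fold change was 1.88 with activin (95% interval -0.17 to 3.93, adjusted p = 0.197 from edgeR), 0.81 after HGF (95% interval -1.13 to 2.76, adjusted p = 0.578 from edgeR) and 2.70 in Activin+HGF against NC (95% interval 0.60 to 4.79, adjusted p = 0.0516 from edgeR). None passed by edgeR, which at such counts does not show that FST did not differ. The last one passed by DESeq2 (adjusted p = 0.00694) and by limma on log2(FPKM + 0.1) and log2(FPKM + 1) (adjusted p = 0.00833 and 0.00776). The value with activin passed by limma on log2(FPKM + 0.1) (0.85, adjusted p = 0.043) but not on log2(FPKM + 1) (adjusted p = 0.0532).

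**Figure D3:**
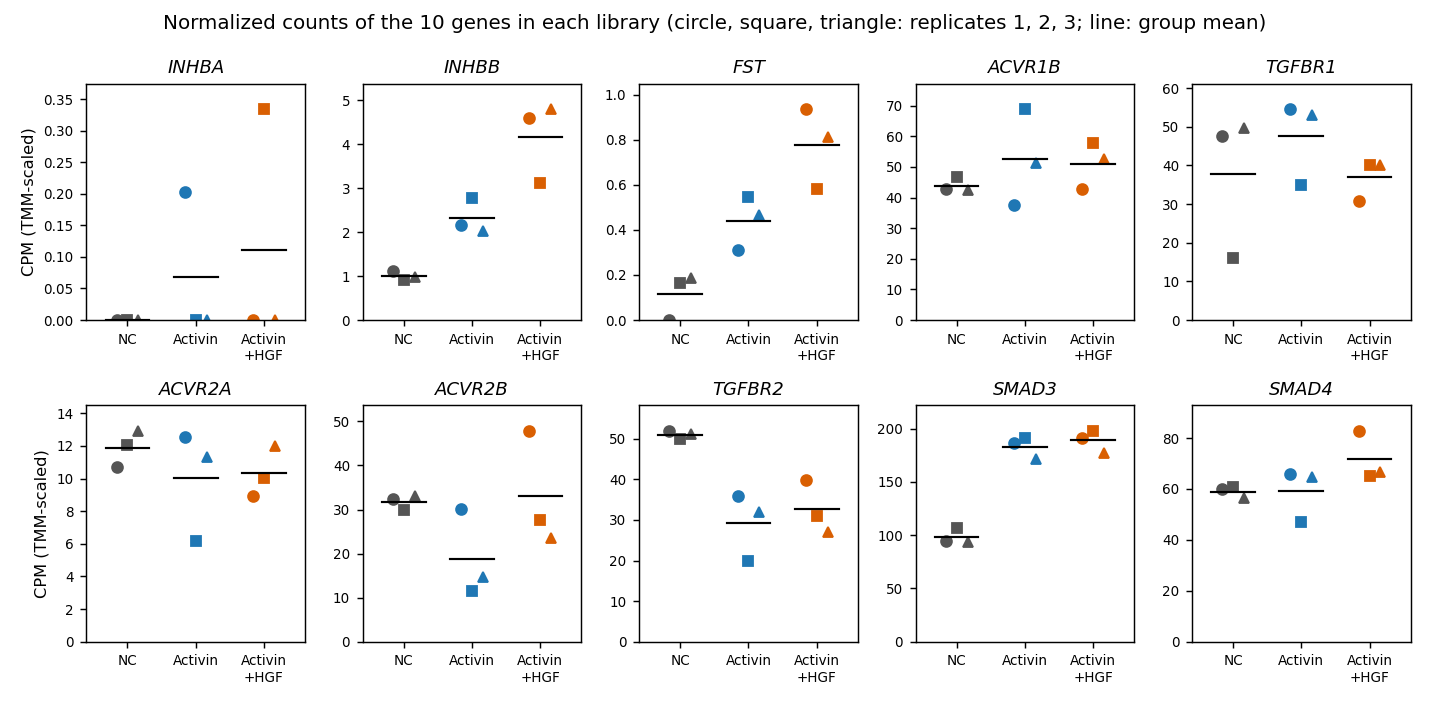
CPM of the TMM-scaled library (y axis from 0, scaled to each gene) of the 10 genes in the NC, Activin and Activin+HGF libraries; circles, squares and triangles are replicates 1, 2 and 3, and lines are group means. INHBB, FST and SMAD3 lay higher and TGFBR2 lower in every treated library than in every NC library, and the other receptors and INHBA overlapped.

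ACVR1B (chr12:51951699-51997078), the type I receptor known as ALK4 that carries most activin signaling, did not pass in any comparison. It had 42.8, 46.6 and 42.5 CPM in NC, 37.5, 68.9 and 51.3 in Activin and 42.9, 57.8 and 52.6 in Activin+HGF. The groups overlapped throughout, and Activin 1 was below every NC library while Activin 2 was above every other library. The log2 fold change was 0.26 with activin (95% interval -0.24 to 0.76, adjusted p = 0.49 from edgeR), -0.04 after HGF (95% interval -0.54 to 0.46, adjusted p = 0.928 from edgeR) and 0.22 in Activin+HGF against NC (95% interval -0.28 to 0.72, adjusted p = 0.5 from edgeR). The last value turned to -0.037 with library totals.

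TGFBR1 (chr9:99104038-99154192), the type I receptor of TGF-beta known as ALK5, rested on a single NC library. It had 47.6, 15.9 and 49.7 CPM in NC, 54.6, 35.0 and 53.0 in Activin and 30.8, 40.1 and 40.1 in Activin+HGF, so NC 2 was the lowest of all 9 libraries. The groups overlapped, with log2 fold changes of 0.33 with activin (95% interval -0.48 to 1.15, adjusted p = 0.6 from edgeR), -0.36 after HGF (95% interval -1.18 to 0.45, adjusted p = 0.553 from edgeR) and -0.03 in Activin+HGF against NC (95% interval -0.84 to 0.79, adjusted p = 0.965 from edgeR). Without NC 2 the values against NC were 0.02 with activin and -0.43 in Activin+HGF (adjusted p = 0.973 and 0.256 from edgeR). The ratio of ACVR1B to TGFBR1 in FPKM was 1.08, 3.54 and 1.03 in NC, 0.827, 2.38 and 1.17 in Activin and 1.68, 1.74 and 1.58 in Activin+HGF, which overlapped as well.

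ACVR2A (chr2:147844517-147930826), a type II receptor of activin and the carrier of the A runs of exons 3 and 10 shown above, did not pass in any comparison. Its libraries held 10.7, 12.0 and 12.9 CPM in NC, 12.6, 6.19 and 11.3 in Activin and 8.92, 10.0 and 12.0 in Activin+HGF. The groups overlapped in CPM, and only Activin 2 lay well below the others. The log2 fold changes were -0.25, 0.04 and -0.20 in the order Activin against NC, Activin+HGF against Activin and Activin+HGF against NC, with 95% intervals of -0.84 to 0.35, -0.56 to 0.64 and -0.80 to 0.39 (adjusted p = 0.598, 0.939 and 0.607 from edgeR). In FPKM, Activin+HGF (0.9 to 1.41) lay below NC (1.53 to 1.8) without overlap.

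ACVR2B (chr3:38453890-38493142), the other type II receptor of activin, did not pass in any comparison of all 9 libraries. Its CPM was 32.5, 29.9 and 33.0 in NC, 30.1, 11.5 and 14.6 in Activin and 47.9, 27.7 and 23.6 in Activin+HGF. Activin 2 and Activin 3 were below every other library, while Activin 1 was within the NC range and Activin+HGF 1 was the highest. The log2 fold change was -0.76 with activin (95% interval -1.57 to 0.04, adjusted p = 0.181 from edgeR), 0.82 after HGF (95% interval 0.02 to 1.62, adjusted p = 0.158 from edgeR) and 0.06 in Activin+HGF against NC (95% interval -0.74 to 0.85, adjusted p = 0.924 from edgeR). Without Activin 1 the value with activin was -1.25 and passed (adjusted p = 0.0335 from edgeR), and without Activin+HGF 1 the value after HGF was 0.46. The ratio of ACVR2A to ACVR2B in FPKM was 0.805 to 0.982 in NC, 1.02 to 1.89 in Activin and 0.45 to 1.24 in Activin+HGF, so Activin lay above NC in this ratio while Activin+HGF overlapped both.

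TGFBR2 (chr3:30606601-30694142), the type II receptor of TGF-beta and the carrier of the longest A run, was the only receptor gene of the 5 that passed in any comparison. It had 52.0, 49.8 and 51.2 CPM in NC, 35.9, 19.9 and 31.9 in Activin and 39.7, 30.9 and 27.1 in Activin+HGF. All 6 treated libraries were below all 3 NC libraries, and the treated groups overlapped each other. TGFBR2 fell by 0.80 on the log2 scale with activin (SE 0.235, adjusted p = 0.0395 from edgeR), which is a level 0.574-fold that of NC. In Activin+HGF against NC the log2 fold change was -0.65 (95% interval -1.16 to -0.13) and narrowly did not pass (adjusted p = 0.0588 from edgeR), and after HGF it was 0.15 (95% interval -0.36 to 0.67, adjusted p = 0.703 from edgeR). The passing result with activin depended on the processing. It was lost with library totals (-0.70, adjusted p = 0.0931 from edgeR), with limma on log2(FPKM + 0.1) (-0.75, adjusted p = 0.0751) and log2(FPKM + 1) (-0.63, adjusted p = 0.0665), and without NC 1, NC 2, NC 3, Activin 1, Activin 3 or Activin+HGF 2 (adjusted p = 0.149, 0.132, 0.108, 0.0502, 0.0969 and 0.0598 from edgeR), with log2 fold changes of -0.93 to -0.73. In Activin+HGF against NC, it passed with library totals (-0.93, adjusted p = 0.021 from edgeR), DESeq2 (adjusted p = 0.0416) and limma on both FPKM scales (adjusted p = 0.0211 and 0.0192). It also passed there by edgeR among genes with a mean FPKM of at least 1 (adjusted p = 0.0431), with only the groups compared (0.0207) and without Activin 2 or Activin+HGF 1 (0.0123 and 0.0375). The ratio of TGFBR2 to the sum of ACVR2A and ACVR2B in FPKM, which does not depend on the scaling of a library, was 1.82 to 2.03 in NC, 1.36 to 1.74 in Activin and 1.18 to 1.36 in Activin+HGF. Both treated groups lay below NC in this ratio without overlap. The ratio of TGFBR2 to TGFBR1 in FPKM was 1.09, 3.13 and 1.02 in NC, 0.656, 0.568 and 0.6 in Activin and 1.28, 0.767 and 0.673 in Activin+HGF. There, Activin lay below NC, but Activin+HGF overlapped NC.

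SMAD3 (chr15:67063763-67195169), which the type I receptors of activin and TGF-beta phosphorylate, rose in both comparisons against NC. Its CPM was 94.3, 107 and 94.0 in NC, 186, 191 and 171 in Activin and 191, 198 and 177 in Activin+HGF. Every treated library was above every NC library, and the treated groups overlapped. SMAD3 rose 1.85-fold with activin (log2 fold change 0.89, SE 0.144, adjusted p = 0.0024 from edgeR) and was 1.92-fold higher in Activin+HGF than in NC (log2 fold change 0.94, SE 0.144, adjusted p = 0.00103 from edgeR). Both results passed without each library in turn, with log2 fold changes of 0.85 to 1.01 and 0.87 to 0.98. The size in Activin+HGF against NC was smaller under other scalings, though it still passed. It was 0.67 with library totals (adjusted p = 0.00574 from edgeR). With limma it was 0.64 on log2(FPKM + 0.1) and 0.59 on log2(FPKM + 1) (adjusted p = 0.00606 and 0.00563). The difference after HGF was 0.05 (95% interval -0.27 to 0.37, adjusted p = 0.859 from edgeR). In FPKM, Activin+HGF (13.4 to 16.5) lay below Activin (17.5 to 20.1), and with library totals the difference was -0.29 (adjusted p = 0.172 from edgeR), so its direction rests on the scaling.

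SMAD4 (chr18:51028394-51085045), the partner shared by all receptor-phosphorylated SMADs, did not pass in any comparison. It had 59.8, 60.7 and 56.4 CPM in NC, 66.0, 47.1 and 64.6 in Activin and 82.9, 65.3 and 66.6 in Activin+HGF. Activin overlapped both other groups, and Activin+HGF lay above NC in CPM but not in FPKM. The log2 fold changes were 0.0069, 0.27 and 0.28 in the order Activin against NC, Activin+HGF against Activin and Activin+HGF against NC, with 95% intervals of -0.39 to 0.41, -0.13 to 0.67 and -0.12 to 0.68 (adjusted p = 0.986, 0.344 and 0.269 from edgeR). The ratio of SMAD3 to SMAD4 in FPKM was 2.22 to 2.48 in NC, 3.73 to 5.70 in Activin and 3.24 to 4.26 in Activin+HGF. Every treated library was above every NC library in this ratio.

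SMAD2, which is phosphorylated beside SMAD3, was no member of the 10 and did not pass in any comparison, with log2 fold changes of -0.14, 0.0090 and -0.13 (adjusted p = 0.728, 0.984 and 0.691 from edgeR). SMAD7, the inhibitory SMAD that feeds back on the type I receptors, had 5.50 to 6.19 CPM in NC, 7.34 to 12.4 in Activin and 15.7 to 20.6 in Activin+HGF. Its log2 fold change was 0.71 with activin (adjusted p = 0.0623 from edgeR), which passed with library totals (0.76, adjusted p = 0.0332 from edgeR), among genes with a mean FPKM of at least 1 (0.75, adjusted p = 0.0333 from edgeR), with DESeq2 (0.72, adjusted p = 0.0254) and without Activin 3 (0.90, adjusted p = 0.0341 from edgeR). It was 0.96 after HGF (adjusted p = 0.0271 from edgeR) and 1.66 in Activin+HGF against NC (adjusted p = 0.000715 from edgeR), and the value after HGF no longer passed with library totals (0.63, adjusted p = 0.069 from edgeR), with limma on log2(FPKM + 0.1) or log2(FPKM + 1) (adjusted p = 0.0947 and 0.0783), with only the groups compared (adjusted p = 0.0907 from edgeR) or, among the 9 fits lacking a library, in 7.

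INHBB and SMAD3 were the members that rose in both comparisons against NC, and their promoters are shown because of this, a choice made after their values were seen. The windows reach from 250 bases before to 50 bases after a RefSeq start (GRCh38.p14) and were searched on both strands for CAGAC, a half-site of SMAD binding whose other strand reads GTCTG. For SMAD3, the most upstream of 5 RefSeq windows is printed. Both are on the plus strand, at chr2:120345886-120346185 and chr15:67065352-67065651, and capitals mark the motif.
INHBB: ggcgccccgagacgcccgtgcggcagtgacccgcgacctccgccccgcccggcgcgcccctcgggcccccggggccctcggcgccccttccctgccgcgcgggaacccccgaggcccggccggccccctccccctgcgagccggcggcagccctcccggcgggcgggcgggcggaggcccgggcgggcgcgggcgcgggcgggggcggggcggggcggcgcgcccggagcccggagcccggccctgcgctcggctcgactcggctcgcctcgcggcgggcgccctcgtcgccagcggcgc
SMAD3: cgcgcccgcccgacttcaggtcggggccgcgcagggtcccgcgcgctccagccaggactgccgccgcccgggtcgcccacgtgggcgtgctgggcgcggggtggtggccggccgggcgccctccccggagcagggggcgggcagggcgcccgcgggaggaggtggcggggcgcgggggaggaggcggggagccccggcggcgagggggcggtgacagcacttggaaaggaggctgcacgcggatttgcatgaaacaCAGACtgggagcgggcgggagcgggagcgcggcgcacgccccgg
The INHBB window held 0 matches and the SMAD3 window 1. The other SMAD3 windows, in order along the strand, held 0, 0, 1 and 4. Over all RefSeq windows of the 10 genes, 10 of 23 (43.5%) held the motif, beside 45.3% of 35116 windows in the table, so its presence did not set these genes apart. TGFBR2 had 0 of 2 windows with a match. A match is a description of letters, not of binding.

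Over the 9 libraries, the members whose log2 CPM ran most alike were INHBB and SMAD3 (Pearson r = 0.88), and those that ran most opposite were TGFBR2 and SMAD3 (r = -0.80). Among 12082 genes with a mean FPKM of at least 1, those most like INHBB were SLC39A11 (r = 0.997) and RAET1G (r = 0.993). Most like TGFBR2 were TXLNG (r = 0.984) and CCDC6 (r = 0.984), and most like SMAD3 were VGF (r = 0.991) and GAS6 (r = 0.991). These correlations are over 9 libraries that fall into 3 treatment groups and share their depth and scaling, and are given as a description.

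Around the 10 genes, a list of 62 other genes of the pathway was drawn up by role, of which 56 were in the table and 51 could be tested. With activin, 14 were higher and 1 was lower. After HGF 11 were higher and 4 lower, and in Activin+HGF against NC 19 were higher and 7 lower (edgeR, adjusted p under 0.05). The shares that passed in either direction were 29.4%, 29.4% and 51.0%, beside 18%, 12.9% and 31.4% of all genes tested, a difference given as a description only. The list was drawn up with earlier results of these data known, so its shares are not independent of them. With library totals the split after HGF turned to 3 higher and 7 lower, and the split against NC to 14 and 7. The 15 genes that passed after HGF were 16 without Activin 2, but 6 without NC 1, NC 2 or NC 3, 3 without Activin 1, 4 without Activin 3, and 9, 7 and 8 without Activin+HGF 1, 2 and 3. The median log2 fold change of the 51 genes was 0.40, 0.17 and 0.62 in the 3 comparisons, beside 0.26, 0.15 and 0.22 for the 9 members.

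**Figure D4:**
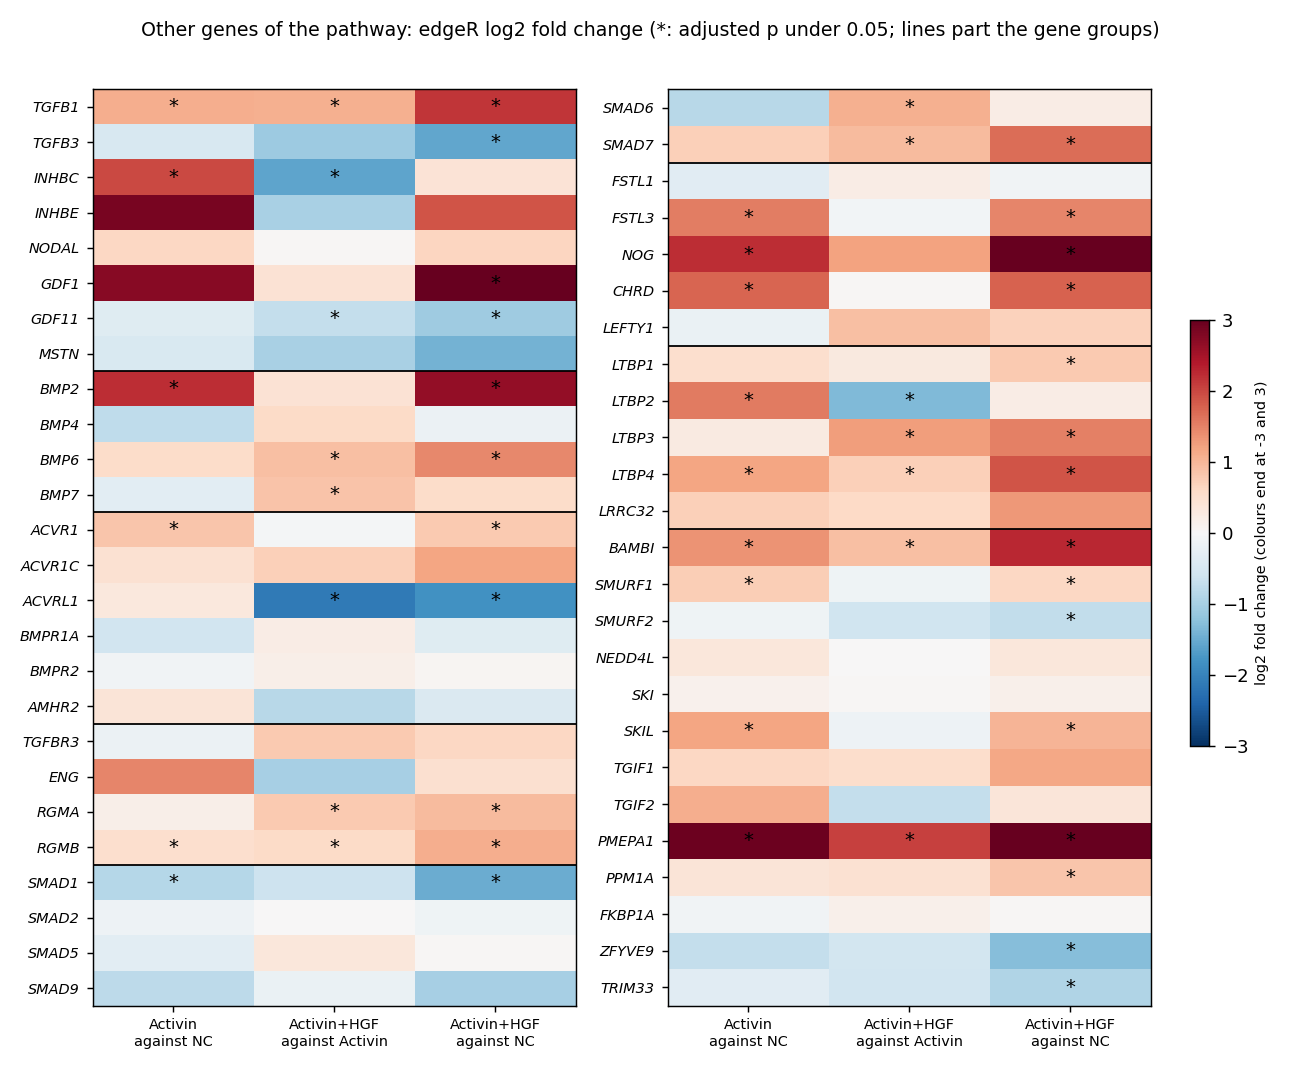
edgeR log2 fold changes (color, ending at -3 and 3) of the 51 tested genes of the pathway other than the 10 members, a row per gene and a column per comparison; asterisks mark an adjusted p under 0.05 and black lines part the gene groups. PMEPA1, TGFB1, BAMBI, RGMB and LTBP4 carry an asterisk as higher in all 3 comparisons.

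Of the other ligands of the TGF-beta and activin branches, 2 of 8 were higher with activin, where 9.58% of all genes were. After HGF 1 was higher and 2 were lower, and in Activin+HGF against NC 2 were higher and 2 lower (7.41% and 5.45%, then 16.4% and 15%, of all genes). TGFB1, the main TGF-beta ligand, rose by 1.08 on the log2 scale with activin (adjusted p = 0.0124 from edgeR, and 0.0566 without NC 3), from 63.0 to 70.4 CPM in NC to 104 to 199 CPM in Activin. It stood at 262 to 330.3 CPM in Activin+HGF, a log2 fold change of 1.07 after HGF (adjusted p = 0.0208 from edgeR), which no longer passed without Activin 1, Activin 3 or Activin+HGF 1 (adjusted p = 0.0941, 0.0784 and 0.0561 from edgeR). With only the groups compared, this difference after HGF did not pass either (adjusted p = 0.0747 from edgeR). In Activin+HGF against NC, GDF11, a ligand that also uses the activin receptors, fell by 1.07 on the log2 scale (adjusted p = 0.00371 from edgeR). BMP6 was higher in that comparison (log2 fold change 1.45, adjusted p = 0.000465 from edgeR), as was RGMB, a co-receptor of BMPs (1.08, adjusted p = 0.000658 from edgeR).

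Antagonists outside the cell were counted apart from FST, and 3 of the 5 tested were higher with activin and 3 of 5 in Activin+HGF against NC, beside 9.58% and 16.4% of all genes. After HGF 0 of the 5 passed by edgeR and 0 by DESeq2, and 1, NOG, had an unadjusted p under 0.05. FSTL3, a relative of follistatin that also binds activin, had 23.76 to 25.02 CPM in NC, 44.5 to 108 in Activin and 62.6 to 73.7 in Activin+HGF, with log2 fold changes of 1.54 and 1.46 against NC (adjusted p = 0.00488 and 0.00369 from edgeR). CHRD, which encodes the BMP antagonist chordin, had log2 fold changes of 1.74 and 1.77 (adjusted p = 0.00135 and 0.000709 from edgeR). NOG, which encodes noggin, had 0.0653 to 0.385 CPM in NC and 1.80 to 3.82 in Activin+HGF, with a log2 fold change of 3.44 in Activin+HGF against NC (adjusted p = 0.0018 from edgeR).

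Of the latent TGF-beta binding proteins, which hold TGF-beta in the matrix, LTBP2 had 3.24 to 3.84 CPM in NC, 9.44 to 10.8 in Activin and 3.34 to 4.85 in Activin+HGF. It rose by 1.56 with activin and fell by 1.33 after HGF on the log2 scale (adjusted p = 0.00151 and 0.00794 from edgeR). NC and Activin+HGF overlapped. LTBP3 was higher after HGF (1.25, adjusted p = 0.00589 from edgeR) and LTBP4 with activin (1.18, adjusted p = 0.00397 from edgeR) and in Activin+HGF against NC (1.88, adjusted p = 0.000203 from edgeR).

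Of 13 tested regulators within the cell, 4 were higher with activin, 2 after HGF and 5 in Activin+HGF against NC, where 3 were lower. Of all genes, 9.58%, 7.41% and 16.4% were higher in these comparisons and 15% lower in the last. PMEPA1, a target and inhibitor of TGF-beta signaling that binds receptor-phosphorylated SMADs, had 0.951 to 1.24 CPM in NC, 7.30 to 9.62 in Activin and 23.6 to 52.4 in Activin+HGF. Its log2 fold changes of 2.93, 2.04 and 4.98 all passed (adjusted p = 0.000388, 0.00616 and 2.34e-05 from edgeR). BAMBI, a decoy receptor, rose by 1.34 with activin and was 2.25 higher in Activin+HGF than in NC (adjusted p = 0.00548 and 0.00022 from edgeR). SKIL, a co-repressor of SMADs, had values of 1.17 and 1.03 in the same comparisons (adjusted p = 0.0122 and 0.0139 from edgeR). Neither passed by edgeR without NC 2 (adjusted p = 0.0544 and 0.0748) or NC 3 (0.0539 and 0.0525). The value in Activin+HGF against NC also did not pass by edgeR without Activin+HGF 2 (adjusted p = 0.0513) or with library totals (0.0842). There, limma on log2(FPKM + 0.1) and log2(FPKM + 1) gave 0.68 and 0.40 (adjusted p = 0.131 and 0.172). ZFYVE9, which encodes the SMAD anchor SARA, fell by 1.27 in Activin+HGF against NC (adjusted p = 0.0212 from edgeR, and 0.0603 without NC 1 and 0.0532 without NC 3). Among the other SMADs, SMAD1 of the BMP branch fell by 0.85 with activin and by 1.48 in Activin+HGF against NC (adjusted p = 0.0223 and 0.000872 from edgeR).

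The KEGG term for TGF-beta signaling, as the deposited table assigns it, held all 10 members and 76 other genes, of which 67 were tested. With activin 12 were higher and 8 lower, after HGF 15 and 3, and in Activin+HGF against NC 22 and 10, while with library totals the split after HGF was 3 higher and 11 lower. The shares that passed were 29.9%, 26.9% and 47.8%, beside 18%, 12.9% and 31.4% of all genes. Only the members were taken out of the KEGG list. It therefore shares genes with the list by role, among them CHRD, BAMBI and NOG, and its shares are not independent of that list's. The 20 genes that passed with activin were 13 without NC 2, NC 3 or Activin 1. The 18 that passed after HGF were 22 without Activin 2, but 6, 6 and 8 without NC 1, 2 and 3, 0 without Activin 1, 1 without Activin 3, and 9, 9 and 7 without Activin+HGF 1, 2 and 3. THBS1, whose product can release TGF-beta from its latent form, rose by 1.51 with activin (adjusted p = 0.00947 from edgeR). ID3, a target of BMP signaling, fell by 1.37 with activin (adjusted p = 0.00253 from edgeR), and ID1, another, was 1.11 higher after HGF (adjusted p = 0.0166 from edgeR), as was NBL1, a BMP antagonist (1.07, adjusted p = 0.0238 from edgeR). PPP2R1B, a phosphatase subunit, and RBL1, a partner of E2F factors, were lower after HGF (-1.43 and -1.41, adjusted p = 0.0144 and 0.0181 from edgeR) and lower against NC (-2.60 and -2.30, adjusted p = 0.000233 and 0.000591 from edgeR). After HGF, ID1 did not pass without Activin 1, Activin 3 or Activin+HGF 3 (adjusted p = 0.0822, 0.0744 and 0.0504 from edgeR). NBL1 did not pass without Activin 1, Activin 3, Activin+HGF 1 or Activin+HGF 3 (adjusted p = 0.104, 0.0907, 0.0634 and 0.0506 from edgeR). RBL1 did not pass without Activin 1, Activin 3 or Activin+HGF 3 (adjusted p = 0.0641, 0.0587 and 0.0512 from edgeR), and PPP2R1B not without Activin 1 (adjusted p = 0.0533 from edgeR). With only the groups compared, none of ID1, NBL1, RBL1 and PPP2R1B passed after HGF (adjusted p = 0.0636, 0.0688, 0.0616 and 0.0525 from edgeR). ID1 also did not pass there with limma on log2(FPKM + 0.1) or log2(FPKM + 1) (adjusted p = 0.0738 and 0.0772).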

How the data were processed

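Values came from 1 deposited table with 33861 genes, in which the authors give counts per gene and FPKM, that is, counts scaled to library size and gene length. The submitters' processing notes name cutadapt 1.9, HISAT2 2.0.4 and StringTie 1.3.4d without their roles. RNA was depleted of ribosomal RNA and sequenced paired-end, and whether counting used the strand is not given in the sources used here. The build is not named, but 99.8% of the 32930 genes found in GENCODE release 29 (GRCh38) overlap their annotated place. The columns were matched to libraries through the library descriptions. The columns of Activin carry the name HCT116A5 and those of Activin+HGF the name HCT116 alone, so these groups rest on the descriptions and titles and not on the column names.

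The members, gene lists and tests were chosen with earlier results of these data known. Counts were tested with edgeR 4.0.16 in R 4.3.3 (filterByExpr, TMM scaling, glmQLFit, glmQLFTest) on all 9 libraries with a mean per group and no block, and p-values were adjusted by the Benjamini-Hochberg method over 20988 genes. Passing means an adjusted p under 0.05. Standard errors were derived from the fold change and the F statistic and are approximate, and 95% intervals use the same fit. CPM is the count relative to the TMM-scaled library size. A two-sided exact permutation test of 3 libraries against 3 cannot give a p below 0.1. No replicate pair was so alike as to be 1 library counted again. Same-numbered libraries deviated from their group means with correlations of -0.06 to 0.09, so the numbers were not taken as pairs. The test was tried on simulated data first: fold changes were recovered with little bias, but changes near a log2 fold change of 1 and changes of low genes mostly did not pass. A first criterion on the share recovered was not met and was replaced by criteria on bias and false calls.

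Genes named are the 10 members and, for each role group and the KEGG list in each comparison, up to 4 genes with the largest absolute log2 fold change among those passing with at least 1, provided the group with more RNA had a mean FPKM of 1 or more. SMAD2, SMAD7 and, for each passing member, the 2 most correlated genes were added. Alternatives were other scalings and filters, DESeq2 1.42.0, limma 3.58.1 on log2(FPKM + 0.1) and log2(FPKM + 1), a block for the replicate number, fits of 2 groups alone, stricter thresholds and each library left out. Figures were drawn with matplotlib 3.10.9 in Python 3.11.15. Intervals and the floor of 3 counts cover no error beyond that of counting and replicate spread.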

Additional observations from a re-analysis of the deposited data

How the results depend on the processing

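The number of members that passed was 3, 0 and 2 in Activin against NC, Activin+HGF against Activin and Activin+HGF against NC. It became 1, 0 and 1 when a log2 fold change of at least 1 was also asked for, 1 in the first comparison at an adjusted p under 0.01, and 1 and 4 in the second and last with DESeq2, and it was 4 in the last with limma on either FPKM scale. With each library left out it ranged from 1 to 3, 0 to 1 and 2 to 3. For the pathway list these ranges were 11 to 19, 3 to 16 and 18 to 29, and for the KEGG list 13 to 24, 0 to 22 and 25 to 36. The pathway list gave 23 genes with DESeq2 and 8 at an adjusted p under 0.01 in the first comparison. In the second it gave 9 without a low-count filter, 3 with only the groups compared, 7 at a log2 fold change of at least 1 and 3 at an adjusted p under 0.01. The KEGG list gave 13 at a log2 fold change of at least 1 and 9 at an adjusted p under 0.01 in the first comparison, and 7, 0 and 0 in the second at a log2 fold change of at least 1, at an adjusted p under 0.01 and with only the groups compared. The cause of these shifts was not tested, apart from the stricter thresholds and smaller number of libraries that some alternatives consist of.

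Signs turned where the log2 fold change was not called. In Activin+HGF against Activin, library totals gave -0.33 for ACVR2A, -0.23 for TGFBR2, -0.29 for SMAD3, -0.10 for SMAD4 and -0.38 for SMAD2. The filter on mean FPKM gave -0.067 for ACVR2A, -0.049 for SMAD3 and -0.092 for SMAD2. limma on log2(FPKM + 0.1) gave -0.27, -0.20, -0.33, -0.095 and -0.34 for ACVR2A, TGFBR2, SMAD3, SMAD4 and SMAD2, and on log2(FPKM + 1) -0.18, -0.17, -0.31, -0.084 and -0.24, while only the groups compared gave -0.032 for SMAD2. In Activin+HGF against NC, library totals gave -0.037 for ACVR1B and -0.24 for ACVR2B, and limma gave -0.088 and -0.075 for ACVR1B, -0.29 and -0.18 for ACVR2B and -0.027 and -0.022 for SMAD4. Without a low-count filter SMAD4 was at -0.0015 in Activin against NC. With a library left out, Activin against NC ranged from -0.40 to 0.0056 for ACVR2A, -0.040 to 0.15 for SMAD4 and -0.24 to 0.046 for SMAD2. Activin+HGF against Activin ranged from -0.30 to 0.20 for ACVR1B, -0.21 to 0.16 for ACVR2A, -0.059 to 0.27 for TGFBR2, -0.078 to 0.090 for SMAD3 and -0.18 to 0.13 for SMAD2. Activin+HGF against NC ranged from -0.43 to 0.22 for TGFBR1 and -0.31 to 0.24 for ACVR2B.

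The replicate number as a block turned SMAD4 to -0.0076 in Activin against NC, and TGFBR1 to 0.12 and ACVR2B to -0.039 in Activin+HGF against NC, none of them called, and it passed TGFBR2 in Activin+HGF against NC (-0.66, adjusted p = 0.0492 from edgeR). The labels do not say whether same-numbered libraries were paired, and the numbers were not taken as pairs in the main fit. INHBB and SMAD3 against NC kept their direction and passed under both scalings, both limma scales, DESeq2 and the block in both comparisons. With a library left out they differed. SMAD3 passed in every such fit, while INHBB with activin did not pass without NC 1, NC 2 or NC 3 (adjusted p = 0.0532, 0.0686 and 0.0814 from edgeR). INHBA had too few counts to be tested, FST had at most 52 counts in a library, and each group had 3 libraries.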
